A study of Homo sapiens with 8 samples.

Results

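Transcripts of the AP-2 transcription factors and of their cofactors were followed in mRNA-seq of HCT116, a human colorectal cancer cell line. The 10 genes are the AP-2 family (TFAP2A to TFAP2E), the coactivators CITED1, CITED2 and CITED4, and the repressors KCTD1 and KCTD15, and each was taken by its symbol. All 10 are listed in both count tables, of 42125 and 23393 genes. The 8 libraries form 4 groups of 2 replicates, and per the labels all come from cells that stably carry an inducible shRNA against UBA2 (SAE2), the catalytic subunit of the SUMO activating enzyme. In the first experiment these cells received control siRNA or TFAP2C siRNA (TFAP2C KD) for 48 hrs. In the second they were given 1 μg/mL of doxycyclin (Dox) for 5 days, which is the group labelled SAE2 kd and called UBA2 KD here, or DMSO for 5 days without Dox (control). No library had Dox without the shRNA, so in that experiment an effect of Dox itself cannot be told apart from one of the shRNA. Whether the line is a clone, and whether replicates were separate cultures, is not given in the sources used here, so the p-values measure only the spread between these libraries.

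AP-2 proteins bind GC-rich DNA as homo- or heterodimers and are known for their roles in neural crest, skin, placenta and breast epithelium. They can activate or repress transcription. CITED proteins do not bind DNA themselves and bridge AP-2 to the histone acetyltransferases CBP and p300, while KCTD1 and KCTD15 bind AP-2 proteins and block their transcriptional activity. AP-2γ, the product of TFAP2C, is itself SUMOylated. The study asked how SUMOylation and TFAP2C act on enhancers, and the comparisons below ask how the AP-2 genes and their cofactors changed when TFAP2C or UBA2 was targeted.

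Total counts lay between 20785035 and 24465109 in the TFAP2C experiment and between 18213739 and 20607813 in the UBA2 experiment. The TFAP2C KD replicates differed from each other more than those of other groups, with a chi-square per degree of freedom of 9.09 over 14772 genes, against 2.55 to 2.76 in the other 3 groups. In the libraries labelled UBA2 KD, UBA2 mRNA had 147 and 153 CPM (counts scaled to library size after TMM normalization), against 162 and 146 CPM in the controls, a log2 change (knockdown over control) of -0.036 with a 95% interval from -0.15 to 0.078. This is mRNA alone, and the UBA2 protein, which the study followed by Western blot, is not measured in these files. Epithelial markers were all present, with 8 of 8 tested in each experiment. Of 6 markers of intestinal epithelium, CDX2 had 18.8 to 23.8 CPM and the other 5 did not exceed 0.250 CPM in any library. COL1A1, a collagen gene among the fibroblast markers, had 14.9 to 47.5 CPM, while COL1A2, DCN and LUM were at 0 in all 8 libraries. Leukocyte markers summed to at most 1.73 CPM and endothelial markers to at most 2.67 CPM in any library. In bulk RNA, fewer cells with a transcript and less of it per cell cannot be told apart.

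In TFAP2C KD, 2 of the 7 members tested were lower and 0 were higher, in edgeR's quasi-likelihood test at an adjusted p under 0.05. The lower genes were TFAP2C, the target of the siRNA, and its paralog TFAP2A. TFAP2C was meant to fall by the design, and it is part of each count of members given for TFAP2C KD. Of all 14991 genes tested, 0.74% were called, with 0.48% lower and 0.26% higher. Of the 8 members tested in the UBA2 experiment 1 was called, the AP-2 repressor KCTD15, which was higher. The background there was 9.98% of 13381 genes, with 5.52% higher and 4.47% lower. Higher genes made up 55.2% of those called there, and 42.2% when library size replaced TMM. At an unadjusted p under 0.05, 3 of 7 members passed in TFAP2C KD (12.6% of all genes) and 2 of 8 in the UBA2 experiment (22.7% of all genes). The groups did not overlap for 4 of 7 members in TFAP2C KD, 1 higher and 3 lower, where 44.7% of all genes did not overlap (22.4% higher and 22.4% lower). In the UBA2 experiment this held for 5 of 8 members, 3 higher and 2 lower, where 51.3% of all genes did not overlap (25.5% higher and 25.8% lower). Neither of these last shares stands far from its background.

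**Figure D1:**
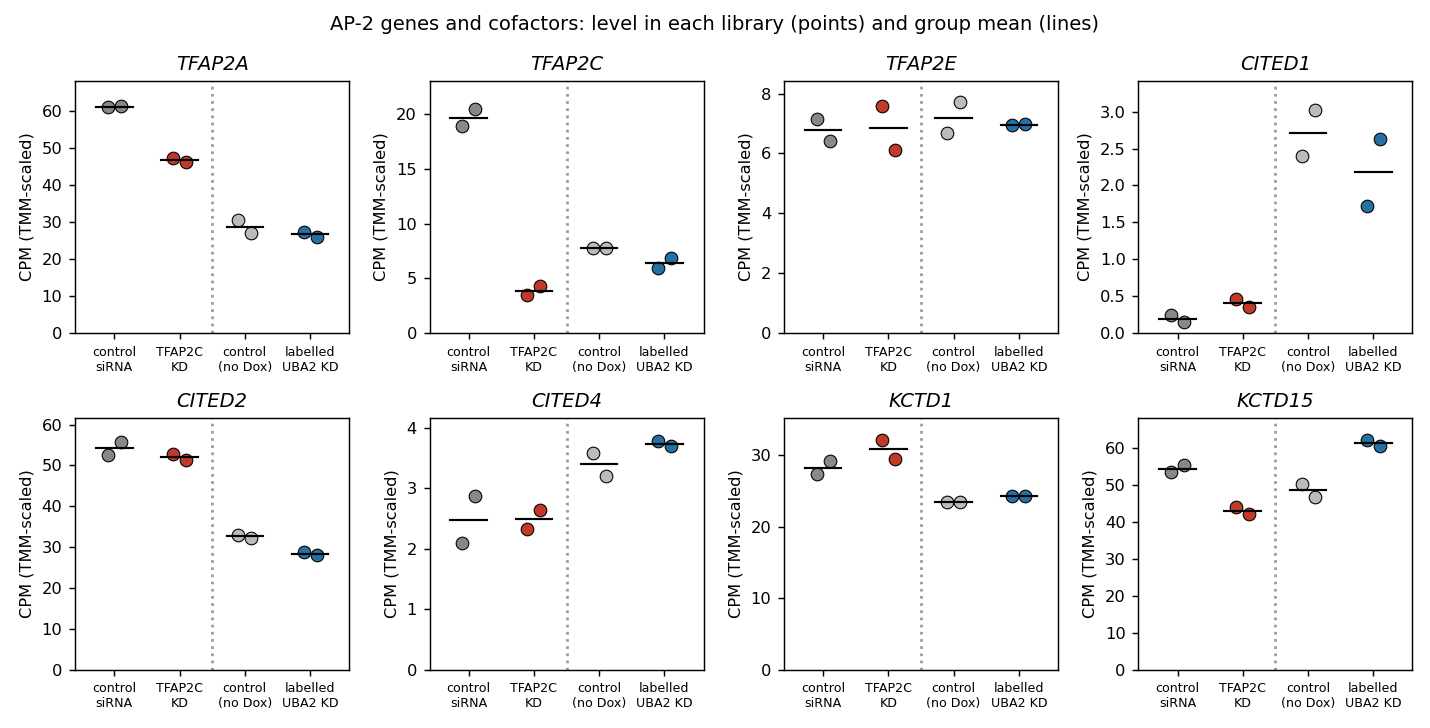
Level of the 8 members with counts, in CPM after TMM scaling (y axis, from 0), in each of the 8 libraries (points) of the 4 groups (x axis), with group means as lines. A dotted line parts the experiments, which were counted on different gene models. TFAP2C lay at 18.9 and 20.5 CPM with control siRNA and at 3.46 and 4.30 CPM in TFAP2C KD, and KCTD15 lay below its controls in TFAP2C KD and above them in the libraries labelled UBA2 KD.

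TFAP2C (chromosome 20, 56629306 to 56639283 on GRCh38, plus strand, 7 exons in its canonical GENCODE transcript) had 460 and 427 counts with control siRNA and 83 and 96 counts in TFAP2C KD. As levels these are 18.9 and 20.5 CPM against 3.46 and 4.30 CPM. Both knockdown libraries lay far below both controls, at a mean of 19.7% of the control level. Its log2 change was -2.34 (SE 0.13, adjusted p = 7.67e-06), and its 95% interval, as a change in level, ran from -83.9% to -75.9%.

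Without Dox, TFAP2C (55204358 to 55214338 on hg19) had 7.80 and 7.81 CPM, and it had 5.94 and 6.87 CPM after Dox, in the libraries labelled UBA2 KD. The groups did not overlap, but only 107 to 163 counts stood behind each value. A log2 change of -0.28 (SE 0.14) did not pass (adjusted p = 0.222), and its 95% interval ran from -0.57 to 0.0010. As a change in level, the interval reaches -32.5%.

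TFAP2A, which encodes AP-2α, was the AP-2 gene with the most counts. On chromosome 6 (10393186 to 10419659 on GRCh38, minus strand), it had 61.1 and 61.4 CPM with control siRNA and 47.4 and 46.2 CPM in TFAP2C KD. Each pair of replicates lay close together and the pairs were well apart. In edgeR's test the log2 change was -0.39 (SE 0.075, adjusted p = 0.0361), a fall of 23.6% in mean level. Its size was between -0.42 and -0.37 under 12 alternatives, but with a single control library left the test did not pass (adjusted p = 0.439 without control siRNA replicate 1 and adjusted p = 0.234 without control siRNA replicate 2). Over the 12 alternatives its adjusted p ran from 4.66e-05 to 0.439.

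The antisense rows within TFAP2A are low. TFAP2A-AS1 had 10 to 14 counts in the TFAP2C experiment and AL138885.3 had 14 to 44, against at least 1033 for TFAP2A. The strand setting of the counting is not given, so reads from the strands cannot be told apart there.

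After Dox, TFAP2A had 27.4 and 26.0 CPM, against 30.7 and 26.9 CPM in the controls. The groups overlapped. The log2 change was -0.11 (SE 0.085, adjusted p = 0.496), with a 95% interval from -0.28 to 0.065. It was -0.013 without control replicate 1 and -0.20 without control replicate 2. The change of TFAP2A was lower by 0.29 on the log2 scale in TFAP2C KD than in the libraries labelled UBA2 KD, in a fit of all 8 libraries, and this difference did not pass (SE 0.11, adjusted p = 0.225). Thus TFAP2A is not shown to respond differently in the experiments.

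Because TFAP2A fell together with TFAP2C, the sequence before its starts is shown. RefSeq (GRCh38.p14) gives TFAP2A 2 promoters, and the 250 bases before each start are printed on the minus strand, the strand of the gene. They lie at chr6:10419660-10419909 and, inside the gene, at chr6:10412392-10412641.
TFAP2A start 1: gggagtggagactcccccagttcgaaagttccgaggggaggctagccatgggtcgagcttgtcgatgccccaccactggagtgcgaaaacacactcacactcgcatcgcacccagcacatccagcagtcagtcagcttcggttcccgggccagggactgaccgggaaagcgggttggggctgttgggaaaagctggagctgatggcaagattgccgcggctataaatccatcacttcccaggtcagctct
TFAP2A start 2: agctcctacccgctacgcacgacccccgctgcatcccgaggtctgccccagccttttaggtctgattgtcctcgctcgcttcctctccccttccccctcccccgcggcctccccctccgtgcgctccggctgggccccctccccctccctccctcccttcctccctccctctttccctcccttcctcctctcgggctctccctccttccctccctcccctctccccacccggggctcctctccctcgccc
Their GC content is 59.6% and 71.2%. A common form of the AP-2 site, GCCNNNGGC, and the form with a longer spacer, GCCNNNNGGC, were searched on both strands, and each reads the same on either strand. Neither form occurs in the 300-base windows around these starts, so no base is in capitals, which says only that these letters are not in these windows. Of 35116 RefSeq promoters of that length, 23.2% hold GCCNNNGGC and 21.4% hold GCCNNNNGGC, and a stretch can hold both. RefSeq promoters were found for 8 of the 10 members, with 16 windows in all. Of these, 4 hold GCCNNNGGC, 4 hold GCCNNNNGGC and 5 hold either form, and those in CITED and KCTD genes are shown with those genes. The share of all promoters with either form was not counted, and some windows of CITED1 and of CITED2 overlap, so the 5 have no background beside them. TFAP2C and KCTD15 had no entry.

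TFAP2E, which encodes AP-2ε, is on chromosome 1 (35573314 to 35595328 on GRCh38). It had 7.14 and 6.42 CPM with control siRNA and 7.59 and 6.13 CPM in TFAP2C KD, so the groups overlapped. Its log2 change was 0.016 (95% interval from -0.30 to 0.33, adjusted p = 0.978), and its sign depended on the scaling, at -0.014 with library size in place of TMM. Without Dox it had 6.68 and 7.72 CPM, against 6.94 and 6.98 CPM in the libraries labelled UBA2 KD. That change was -0.052 (95% interval from -0.34 to 0.23, adjusted p = 0.870). On hg19 the row of PSMB2, a proteasome gene on the opposite strand with 5406 to 6307 counts, spans the whole of TFAP2E in that table. The GENCODE exons of the pair do not overlap on GRCh37, and whether PSMB2 reads entered the TFAP2E counts was not tested.

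TFAP2B and TFAP2D, for AP-2β and AP-2δ, had 0 counts in all 8 libraries. A count of 0 allows up to 0.123 to 0.144 CPM in the libraries of the TFAP2C experiment and 0.146 to 0.165 CPM in those of the UBA2 experiment (3 counts per library, counting error only). They could not be tested, and the AP-2 mRNA detected here was therefore that of TFAP2A, TFAP2C and TFAP2E.

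To compare AP-2 genes with each other, levels were divided by the exon length in each table. With control siRNA, TFAP2A stood at 7.47 ± 0.023 CPM per kb (SD, n = 2), TFAP2C at 6.57 ± 0.377 and TFAP2E at 2.996 ± 0.223, and their sum was 17.0 ± 0.177. In TFAP2C KD the sum was 10.0 ± 0.360 CPM per kb (SD, n = 2), with no overlap of the groups, where 44.7% of all genes did not overlap. The share of TFAP2C in the sum went from 38.6% ± 1.81 to 13.0% ± 2.43 (SD, n = 2 each), while that of TFAP2E went from 17.6% ± 1.49 to 30.1% ± 3.46 without a detectable change of TFAP2E itself. TFAP2A then made up 56.9% ± 1.03 of the AP-2 mRNA (SD, n = 2). These shares rest on the exon lengths. Without division by length, that of TFAP2C was 22.4% with control siRNA and 6.75% in TFAP2C KD. In the same order, that of TFAP2A was then 69.8% and 81.3%, and that of TFAP2E 7.74% and 11.9%. The exon length used for TFAP2E was 2.264 kb, against 4308 exon bases in GENCODE on GRCh37.

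In the UBA2 experiment the sum was 11.3 ± 0.155 CPM per kb in the controls and 10.3 ± 0.0538 in the libraries labelled UBA2 KD (SD, n = 2 each), again without overlap. There 51.3% of all genes did not overlap, and none of TFAP2A, TFAP2C and TFAP2E was called. TFAP2C made up 23.3% ± 0.342 and 20.9% ± 2.04 of the sum (SD, n = 2 each). Its shares were 23.0% and 23.5% in the controls, above 19.4% and 22.3% in the labelled libraries. With 2 libraries against 2, the smallest p that an exact test on such a sum can give is 0.333, so no test is given. The levels are not compared between the experiments, since the exon length of TFAP2A is 8.20 kb in the first table and 5.34 kb in the second and the libraries were counted separately.

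**Figure D2:**
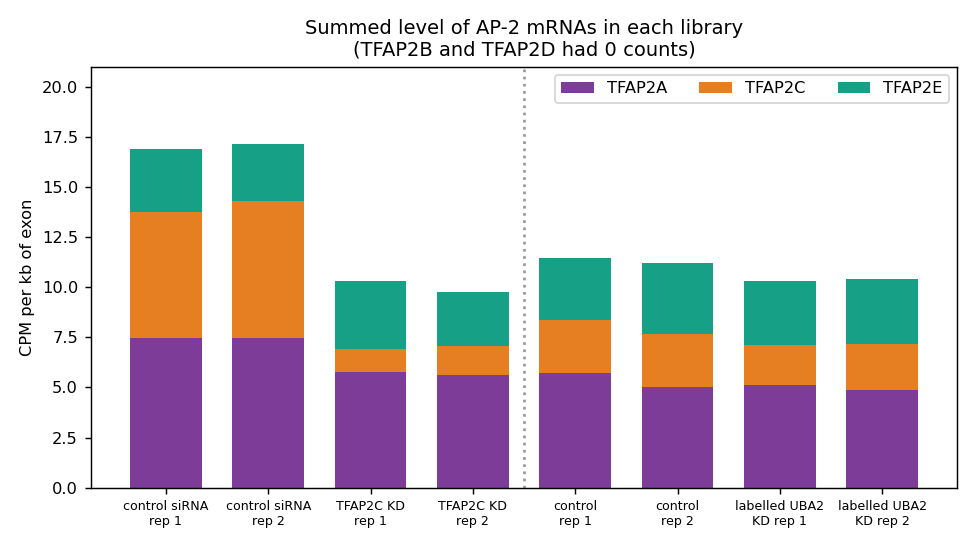
Summed level of AP-2 mRNAs in CPM per kb of exon (y axis, from 0) in each of the 8 libraries (x axis), stacked by gene. The sum was near 17.0 with control siRNA and near 10.0 in TFAP2C KD, with the loss mostly in the TFAP2C segment, and a dotted line parts the experiments.

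Of the coactivators, CITED2 had by far the highest level. It also competes with HIF-1α for CBP and p300. On chromosome 6 (139371807 to 139374648 on GRCh38), CITED2 had 52.7 and 55.7 CPM with control siRNA and 52.7 and 51.2 CPM in TFAP2C KD. The groups overlapped, and the log2 change was -0.060 (95% interval from -0.23 to 0.11, adjusted p = 0.786). After Dox it had 28.7 and 28.1 CPM, below the 33.0 and 32.2 CPM of the controls. The change was -0.20 (log2, SE 0.078), with a 95% interval from -0.36 to -0.040 before adjustment. Over all genes it did not pass (adjusted p = 0.111), and it stayed between -0.23 and -0.18 under 11 alternatives, with an adjusted p from 0.0619 to 0.418.

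CITED4 had few counts, from 51 to 69 in any library. It had 2.09 and 2.88 CPM with control siRNA and 2.33 and 2.64 CPM in TFAP2C KD, where the knockdown values lay between the controls. The log2 change of 0.012 has a 95% interval from -0.45 to 0.48 (adjusted p = 0.986), so these counts allow changes in level from -26.9% to 39.2%. The sign turned to -0.016 with library size in place of TMM. In the UBA2 experiment CITED4 had 3.58 and 3.21 CPM in the controls and 3.78 and 3.71 CPM in the labelled libraries, a log2 change of 0.14 (95% interval from -0.24 to 0.52, adjusted p = 0.720).

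CITED1 (chromosome X, 72301638 to 72307187 on GRCh38) was barely detected in the TFAP2C experiment. It had 6 and 3 counts with control siRNA and 11 and 8 counts in TFAP2C KD, and was removed by the filter on low counts. The higher counts in TFAP2C KD are thus given without a test of that experiment alone. In the fit of all 8 libraries CITED1 was kept. Its change was higher by 1.33 on the log2 scale in TFAP2C KD than in the libraries labelled UBA2 KD, and this difference did not pass (SE 0.62, adjusted p = 0.356, edgeR). With 45 and 63 counts in the controls of the UBA2 experiment and 31 and 49 in the labelled libraries, it could be tested there. Its log2 change was -0.32 (95% interval from -0.80 to 0.16, adjusted p = 0.463), and the groups overlapped. With a library left out it ran from -0.66 without UBA2 KD replicate 2 to -0.050 without UBA2 KD replicate 1, so its size rests on single libraries.

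The rows around CITED1 differ between the tables. In that of TFAP2C KD, AL133500.1 on the same strand overlaps CITED1 by 5497 bp with 0 counts in every library, and PIN4 on the opposite strand overlaps it by 1289 bp with 192 to 217 counts. In the table of the UBA2 experiment no row of a single locus overlaps CITED1. In GENCODE on GRCh37, 38.6% of the exon bases of CITED1 are shared with a gene on the same strand and 6.88% with PIN4. Reads in shared exons may not have been assigned, so the level of CITED1 is uncertain, and the part of this in the low counts was not tested.

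AP-2 motifs occur before a start of each CITED gene, none of which passed where it was tested (CITED1 in the UBA2 experiment and in the fit of all 8 libraries). They are shown, with motif letters in capitals, beside the TFAP2A promoters, which hold none. All are on the minus strand, the strand of these genes, at chrX:72307158-72307190 for CITED1, chr6:139374772-139374842 for CITED2 and chr1:40862514-40862573 for CITED4 (RefSeq, GRCh38.p14).
CITED1: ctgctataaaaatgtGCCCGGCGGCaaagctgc
CITED2: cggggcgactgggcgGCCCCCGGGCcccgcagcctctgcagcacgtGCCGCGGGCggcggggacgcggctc
CITED4: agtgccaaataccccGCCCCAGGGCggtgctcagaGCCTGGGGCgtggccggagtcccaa
Counted from the start, with the base before it at -1, the motifs begin at -18 in CITED1, at -179 and -148 in CITED2, and at -195 and -175 in CITED4. CITED1 and CITED2 have 3 windows each, and only that of start 1 holds a motif. TFAP2E, which was not called either, has neither form in its window. A match is a description of these letters and not evidence that AP-2 binds there.

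Of the repressors, KCTD15 lies on chromosome 19 (33795933 to 33815763 on GRCh38, plus strand). It had 53.4 and 55.3 CPM with control siRNA and 43.99 and 42.02 CPM in TFAP2C KD. Both knockdown libraries lay below both controls, at a mean of 79.1% of the control level. The log2 change of -0.34 (SE 0.078) was near the threshold but did not pass it (adjusted p = 0.0876). Of 12 alternatives, 5 put it past the threshold, 7 did not and 0 changed its sign, with a log2 change from -0.37 to -0.30. Of these 5, 1 was a block that pairs replicates of unlike number, chosen after seeing the data (adjusted p = 0.0150, edgeR). KCTD15 also passed without TFAP2C KD replicate 1 (-0.37) and without TFAP2C KD replicate 2 (-0.30), in which the remaining library is assumed to vary like the controls.

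KCTD15 was higher in the libraries labelled UBA2 KD. It had 50.2 and 46.8 CPM in the controls and 62.1 and 60.5 CPM after Dox. All labelled libraries were above all controls, at a mean of 126% of the control level. Dox itself and the shRNA cannot be told apart here. The rise of KCTD15 was 0.34 on the log2 scale (SE 0.067, adjusted p = 0.000573), and it kept this call under 11 of 11 alternatives, with an adjusted p from 4.92e-05 to 0.0242.

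The difference between the changes of KCTD15 was tested itself, in the fit of all 8 libraries over 13179 genes. The change in TFAP2C KD was lower by 0.69 on the log2 scale (SE 0.097, adjusted p = 0.00106). Of all genes tested, 2.37% passed this test, 0.903% with a difference above 0 and 1.47% below. Of the 8 members tested in this fit, KCTD15 and TFAP2C passed, and TFAP2C was the target of the siRNA. The difference of KCTD15 held under 14 of 14 alternatives, at -0.73 to -0.64, with an adjusted p from 4.96e-07 to 0.0185. The agents, times and count tables also differ between the experiments, and their part in this difference cannot be told apart from that of the targeted gene.

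KCTD1, on chromosome 18 (26454910 to 26657401 on GRCh38), had 27.3 and 29.2 CPM with control siRNA and 32.2 and 29.5 CPM in TFAP2C KD. The knockdown libraries lay just above the controls. In edgeR's test the log2 change was 0.13 (95% interval from -0.066 to 0.33, adjusted p = 0.579). A row on the same strand within it, AC007996.1, had 121 to 137 counts. The level of KCTD1 was 23.5 CPM in each control of the UBA2 experiment and 24.4 CPM in each labelled library, a log2 change of 0.052 (95% interval from -0.12 to 0.22, adjusted p = 0.780).

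Of the 4 RefSeq starts of KCTD1, 2 are preceded by AP-2 motifs. They are printed on the minus strand, the strand of the gene, with the motifs in capitals, at chr18:26549866-26549964 and chr18:26549529-26549568 (GRCh38.p14).
KCTD1 start 2: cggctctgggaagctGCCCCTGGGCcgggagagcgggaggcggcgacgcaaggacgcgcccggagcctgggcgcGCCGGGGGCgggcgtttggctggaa
KCTD1 start 3: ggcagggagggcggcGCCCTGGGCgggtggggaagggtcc
Like the CITED genes, KCTD1 had motifs near a start and no called change. TFAP2E had no called change and neither form in its window. CDKN1A, a listed target gene called higher in TFAP2C KD, also has neither form in its window. Nothing follows from these matches about binding.

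**Figure D3:**
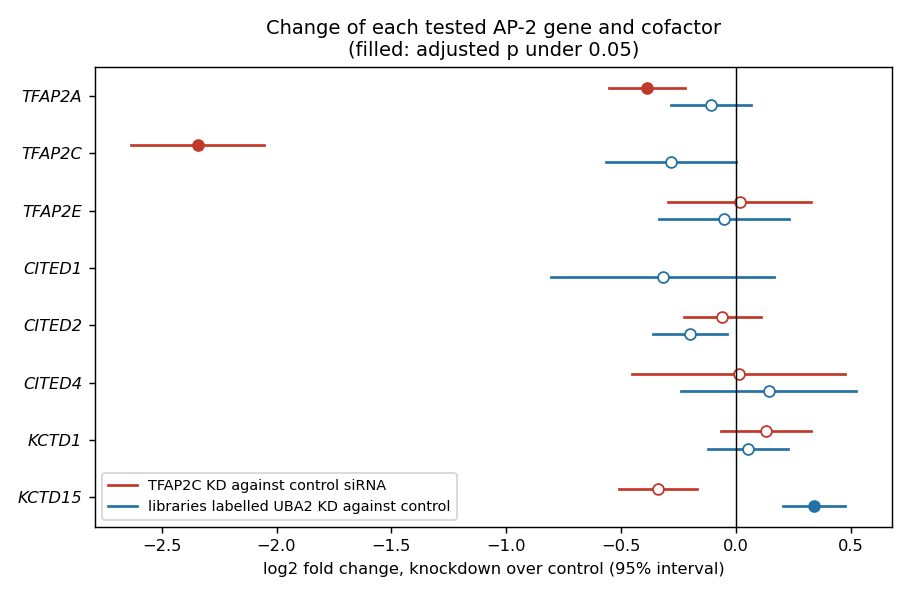
Log2 change of each tested member (x axis, knockdown over control) with its 95% interval, for TFAP2C KD (red) and for the libraries labelled UBA2 KD (blue). Filled points have an adjusted p under 0.05. TFAP2C at -2.34 and TFAP2A at -0.39 are filled in TFAP2C KD, and KCTD15 at 0.34 in the libraries labelled UBA2 KD. CITED1 was tested only in the UBA2 experiment.

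Ordered by level per kb with control siRNA, CITED2 (21.2 CPM per kb) came first, before KCTD15 (8.52), TFAP2A (7.47), TFAP2C (6.57), KCTD1 (3.18), TFAP2E (2.996), CITED4 (1.89) and CITED1 (0.111). KCTD1 and TFAP2E, neighbours in this order, overlapped between libraries. In the controls of the UBA2 experiment, CITED2 (15.4 CPM per kb) and KCTD15 (9.30) again led, before TFAP2A (5.39), TFAP2E (3.30), KCTD1 (2.88), TFAP2C (2.63), CITED4 (2.63) and CITED1 (1.68). TFAP2C and CITED4 could not be placed in order there.

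AP-2 target genes were followed as a list of 30 genes that AP-2 proteins are known to regulate in other tissues. In TFAP2C KD, 28 were listed in the table and 24 were tested. Of these, 1 rose, 0 fell and 23 did not pass, so 4.17% were called beside the background of 0.74%. The median log2 change was 0.027, against -0.0038 over all genes tested, with 14 of the 24 above 0 (58.3%, and 49.1% of all genes). The gene that rose was CDKN1A, the cell cycle inhibitor p21. It had 444 and 472 CPM with control siRNA and 744 and 675 CPM in TFAP2C KD. Its log2 change was 0.63 (SE 0.073, adjusted p = 0.00169). Next by adjusted p was CCND1, for cyclin D1, at 0.32 (adjusted p = 0.0596), named after its value was seen. ESR1 had at most 0.0834 CPM in any library of that experiment and was not tested.

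After Dox, 25 of the 30 target genes were tested, and 8 rose, 1 fell and 16 did not pass, so 36.0% were called beside the background of 9.98%. The median log2 change was 0.060, against -0.00042 over all genes tested, and 16 of the 25 lay above 0 (64.0%, and 49.9% of all genes). The largest rises were in VEGFA at 0.67 (adjusted p = 3.13e-10), MT2A at 0.52 (adjusted p = 3.05e-08), TGFA at 0.49 (adjusted p = 1.83e-07) and EGFR at 0.31 (adjusted p = 0.00146). They encode an angiogenic factor, a metallothionein, a ligand of the EGF receptor and that receptor. VEGFA had 76.1 and 74.0 CPM in the controls and 123 and 115 CPM in the labelled libraries. TGFA had 88.9 and 82.0 CPM in the controls and 122 and 118 CPM in the labelled libraries. MCAM, a cell adhesion molecule that AP-2α is known to repress, fell by 0.24 on the log2 scale (SE 0.077, adjusted p = 0.0403), and no value of it was used in TFAP2C KD, whose table does not hold the symbol. Of the 10 alternatives fitted on the UBA2 table alone, 5 called 0 target genes lower, among them the fits without control replicate 1, without control replicate 2 and without UBA2 KD replicate 1.

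The list was compiled with earlier results of these data known. Its called shares stand beside those of all genes tested, which were not matched to it by level. At high counts a small change can pass, and the part of level in these shares was not tested. The sum of the epithelial markers moved with the groups too, but not all of the markers did. Their summed level was 2408 to 2425 CPM in the controls and 2682 to 2769 CPM in the labelled libraries, with 4 higher and 1 lower of 8 tested (62.5%, against 9.98% of all genes), and it was 3227 to 3366 CPM with control siRNA and 3581 to 3867 CPM in TFAP2C KD, with 0 of 8 called (0.74% of all genes). The sum rests most on keratins. With control siRNA KRT19 and KRT8 had means of 1187 and 870 CPM. In the controls of the UBA2 experiment KRT8 and KRT18 had means of 980 and 578 CPM. Of the 8 markers, 5 had a log2 change above 0 in TFAP2C KD and 6 after Dox. CLDN3 lay below 0 in both (-0.15 and -0.11), and CLDN4 was the marker called lower after Dox. KRT8 and KRT18, which rose by 0.18 and 0.25 after Dox, are on both lists, as is CDH1. The part of the epithelial markers in the target genes' values was not tested.

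**Figure D4:**
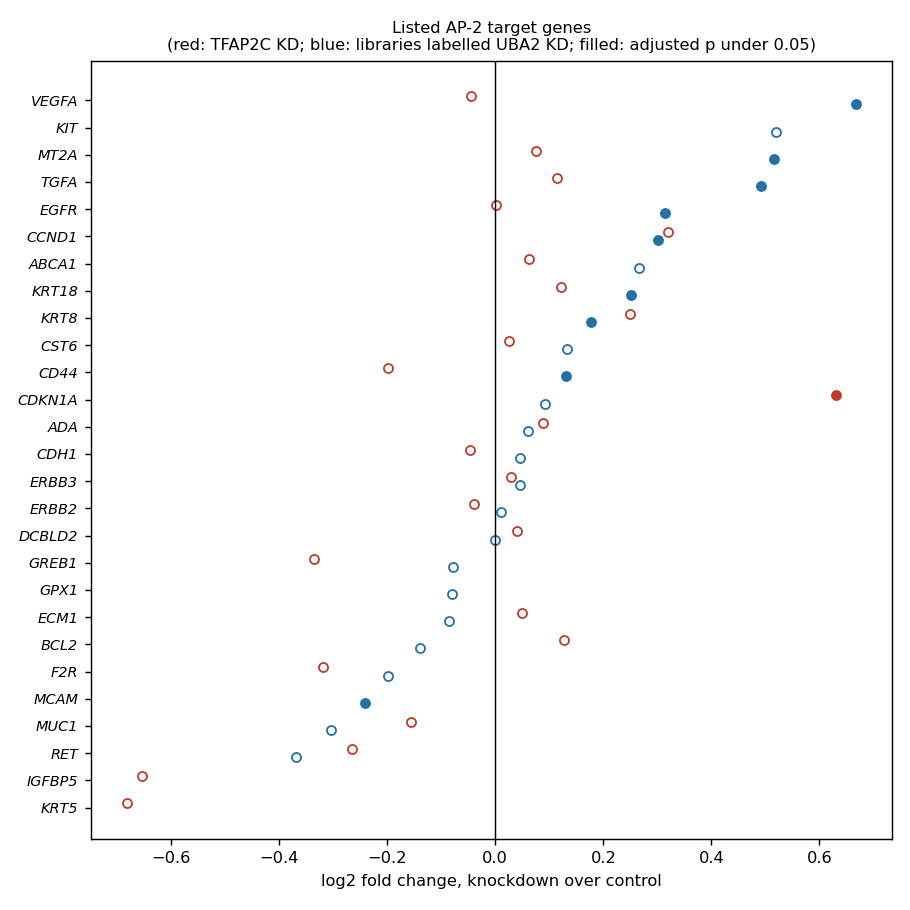
Log2 change (x axis, knockdown over control) of each tested AP-2 target gene (rows) in TFAP2C KD (red) and in the libraries labelled UBA2 KD (blue), with genes ordered by the latter. Filled points have an adjusted p under 0.05. CDKN1A at 0.63 is the red point filled, and 9 blue points are filled, of which 8 lie above 0.

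Binding partners of AP-2 proteins were followed as a list of 20 genes, including CBP and p300 (CREBBP, EP300) and the deacetylases HDAC1 and HDAC2. All 20 were tested in both experiments. In TFAP2C KD 0 were called (0.74% of all genes), with a median log2 change of -0.019. After Dox 2 rose, 0 fell and 18 did not pass, and the median was -0.0098. Among them MYC, a transcription factor of cell growth, rose by 0.23 (adjusted p = 0.000895). At 10.0% of the list, this is near the background of 9.98%.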

How the data were processed

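The mRNA-seq of 8 HCT116 libraries was used, in 4 groups of 2 taken from the labels. For alignment of the single-end reads the authors used TopHat2 and hg19. They deposited raw read counts per gene, made with HTSeq (0.9.1 in the submitters' processing notes) and RefSeq genes. The table of TFAP2C KD holds GRCh38 positions and Ensembl gene types instead, so each knockdown was compared with its control in its own experiment. The exceptions are the fits of all 8 libraries and the distances between genes, which join both experiments over shared symbols. The strand setting is not given in the sources used here. Libraries held 18213739 to 24465109 counts.

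Low genes were removed by filterByExpr (edgeR 4.0.16, R 4.3.3), counts were scaled by TMM, and groups were compared by the quasi-likelihood test, two-sided, with Benjamini-Hochberg adjustment over all genes. An adjusted p under 0.05 was called. The SE is the log2 change divided by the root of F. The difference between the knockdowns was fitted on all 8 libraries over shared symbols. Alternatives were DESeq2 1.42.0, other scalings and filters, the replicate number as a block, and each library left out. For TFAP2C KD a block with crossed replicate numbers was added after seeing the data. The code was tested on simulated data. Exons come from GENCODE v44 on GRCh37 and promoters from RefSeq on GRCh38.p14.

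The members and lists were chosen with earlier results of these data known, and the lists were written from general knowledge. Named are all members, UBA2, and from each list up to 4 genes with the largest rise and fall among those called whose knockdown libraries both lay beyond both controls. Also named are, for TFAP2C and TFAP2A, the 3 genes with the nearest centred log2 CPM by root mean square distance, where the average log2 CPM reached 1 in both experiments. Some genes of the lists enter the counts but are not reported here by name.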

Additional observations from a re-analysis of the deposited data

Results flagged for a closer look

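For 2 of the 8 members tested in the fit of all 8 libraries, the change differed between the experiments by a test of the difference itself. The change of TFAP2C was lower by 2.07 on the log2 scale in TFAP2C KD than in the libraries labelled UBA2 KD (difference -2.07, standard error 0.19, adjusted p = 5.08e-05, edgeR). TFAP2C is the target of the siRNA and was meant to fall in TFAP2C KD by the design. The change of KCTD15 differed by -0.69 (standard error 0.097, adjusted p = 0.00106, edgeR), from below 0 in TFAP2C KD to above 0 in the libraries labelled UBA2 KD. In each experiment, both knockdown libraries lay on the same side of both of their controls for KCTD15.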

How the results depend on the processing

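TFAP2C in TFAP2C KD (12 alternatives), KCTD15 after Dox (11) and the difference between the knockdowns of either gene (14) kept their direction and their call under all of these. With 2 libraries in a group, precision rested on the spread shared across genes, and CITED4 and CITED1 were limited by depth. The number of genes called in TFAP2C KD, 111, was 398 without a filter, 172 with the replicate block and 271 with all 8 libraries in the same fit. With each library left out it ran from 49 without control siRNA replicate 1 to 2825 without TFAP2C KD replicate 2, and was 74 without control siRNA replicate 2 and 537 without TFAP2C KD replicate 1. The members called, 2, ranged from 1 without either control siRNA library to 3 without either TFAP2C KD library. For AP-2 target genes, 1 in TFAP2C KD, the number was 2 with the Wald test of DESeq2, 4 without a filter and 5 with all 8 libraries, and from 1 to 6 with a library left out (3 without TFAP2C KD replicate 1 and 6 without TFAP2C KD replicate 2). In the libraries labelled UBA2 KD, 1336 genes were called, against 673 with the Wald test of DESeq2, 696 with all 8 libraries and 833 to 1271 with a library left out (833 without control replicate 2). Higher genes were 55.2% of these, 42.2% when scaled by library size only and 66.4% by DESeq2.

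The log2 change of TFAP2E in TFAP2C KD, 0.016, turned to -0.014 with library size only, -0.066 without control siRNA replicate 2 and -0.15 without TFAP2C KD replicate 1, and reached 0.16 without TFAP2C KD replicate 2. That of CITED4, 0.012, turned to -0.016 with library size only, -0.21 without control siRNA replicate 1 and -0.071 without TFAP2C KD replicate 2, and reached 0.24 without control siRNA replicate 2. TFAP2E in the UBA2 experiment, -0.052, was 0.060 without control replicate 2 and at lowest -0.15 with another library left out. The difference between the knockdowns turned to 0.11 for CITED4 without control siRNA replicate 2 (lowest -0.36, without control siRNA replicate 1). For TFAP2E it turned to -0.089 without TFAP2C KD replicate 1 and -0.058 without control replicate 2 (highest 0.19, without TFAP2C KD replicate 2). With a library left out, CITED2 ran from -0.10 to -0.028 and KCTD1 from 0.067 to 0.20 in TFAP2C KD, and CITED4 from 0.064 to 0.22 in the UBA2 experiment. None of these was past the threshold, and the cause was not tested.

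Same-numbered libraries had deviations that correlated at -0.14 in the TFAP2C experiment and 0.074 in the UBA2 experiment, so the numbers are not taken as pairs. The replicate block gave 172 genes in TFAP2C KD and 1308 in the UBA2 experiment and changed the call of no member. The crossed pairing in TFAP2C KD, chosen after seeing the data, gave 467 genes and 5 AP-2 target genes. It also put KCTD15 past the threshold (adjusted p = 0.0150, edgeR).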

Other observations

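Other KCTD genes were followed as a list of 19 besides KCTD1 and KCTD15. The family has varied roles that include adaptors of ubiquitin ligases, and the listed genes were mostly not called. In TFAP2C KD 16 were tested and 0 were called (0.74% of all genes), with 13 above 0 (81.2%, and 49.1% of all genes) and a median log2 change of 0.042, against -0.0038 over all genes. In the libraries labelled UBA2 KD 15 were tested, of which 0 rose, 1 fell and 14 did not pass. At 6.67% called this is near the 9.98% of all genes. The gene that fell was KCTD21, from 7.59 and 7.24 to 4.72 and 5.96 CPM, with a log2 change of -0.47 (adjusted p = 0.0410, edgeR). Of 8 binding partners of CITED proteins, 0 were called in TFAP2C KD (0.74% of all genes) and 2 of the 8 in the libraries labelled UBA2 KD (against 9.98% of all genes). There SMAD3, which carries TGF-β signals, rose by 0.35 (adjusted p = 8.50e-05, edgeR), and LHX2, a LIM homeobox factor whose coactivation involves CITED2, fell by 0.38 on the log2 scale (adjusted p = 0.0314, edgeR). SMAD3 had 152 and 145 CPM in the controls and 205 and 174 CPM in the labelled libraries, and LHX2 had 12.8 and 14.8 against 9.83 and 11.4 CPM.

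The genes closest to TFAP2C over the 8 libraries, by the root mean square distance of log2 CPM centred within each experiment, were RGS5 (0.497), SAMD5 (0.522) and CNTNAP3 (0.544), among 10995 genes with a median distance of 0.841. All 3 fell in TFAP2C KD, RGS5 with a log2 change of -0.98 (adjusted p = 0.0149, edgeR), SAMD5 with -0.87 (adjusted p = 0.00569, edgeR) and CNTNAP3 with -0.82 (adjusted p = 0.0158, edgeR). TFAP2C itself deviated from its own means by 0.833, so none of them was near it. Those closest to TFAP2A were OTX1 (0.0276), DIP2C (0.0420) and LMTK2 (0.0423), with a median distance of 0.178. DIP2C fell in TFAP2C KD by 0.41 on the log2 scale (adjusted p = 0.0321, edgeR), while OTX1 at -0.35 (adjusted p = 0.115, edgeR) and LMTK2 at -0.34 (adjusted p = 0.0573, edgeR) did not pass. The distances and these changes come from the same libraries and are descriptions.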
